A study of Homo sapiens with 4 samples.

Results

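The transcriptome of PC3 cells carrying a short hairpin RNA against p14ARF was compared with that of PC3 cells without the hairpin. Both were kept in vehicle (DMSO) for 3 days, without any drug. Of the 43622 genes in the deposited table, the 14316 whose mean reached 1 TPM (transcript abundance scaled to one common total per library) over these 6 libraries were tested. They held 99.8% of all TPM in every library. Just inside this limit was FAM46B, at 1.12 TPM without and 0.884 TPM with the hairpin, and just outside it AKR7A3, at 0.832 and 1.16 TPM.

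PC3 is an established line of human prostatic adenocarcinoma. The 3 libraries named Ctrl are PC3 cells of wild-type genotype with vehicle, and the 3 named shARF are the PC3-shp14ARF line with vehicle. A further 3 libraries of PC3 cells (MLN) and 3 of PC3-shp14ARF cells (Both) received MLN4924, an inhibitor of the NEDD8-activating enzyme, at 1 µM for 3 days, and serve only for a side-by-side view at the end. The PC3-shp14ARF line was made by retroviral transduction and hygromycin selection, and the methods name no PC3 line with a control hairpin. The effect of the hairpin therefore cannot be told apart from that of transduction, selection or the history of the line. Whether the 3 libraries of a group are separate cultures is not given in the sources used here, so p-values measure only the spread between these libraries, which may be technical.

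p14ARF is made from the CDKN2A locus by an alternate first exon and an alternate reading frame, while the other main product of the locus is the CDK inhibitor p16INK4a. The protein sits largely in the nucleolus with nucleophosmin (NPM1). Its best known act is to bind MDM2 and so spare p53 from degradation. PC3 cells lack functional p53, and ARF also has partners outside that axis, among them MYC and E2F1.

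CDKN2A, the target of the hairpin, lies on chromosome 9 from 21967752 to 21995324 (GRCh38). It was at 190.1, 183 and 177 TPM in the Ctrl libraries 1, 2 and 3 and at 58.2, 58.7 and 60.9 TPM in the shARF libraries 1, 3 and 5. All shARF libraries were below all Ctrl libraries, and 32.3% of the Ctrl level remained (log2 fold change −1.63 with an SE of 0.050, adjusted p = 5.35e-08, limma). The values are per gene, so transcripts of p14ARF and p16INK4a are counted together. Among the 11 genes listed from the 9p21 region around CDKN2A, 10 were tested. Of these, 6 were lower and 0 higher, beside 26.8% lower and 29.9% higher over all genes. MIR31HG, the host gene of miR-31 on the same chromosome from 21454268 to 21559798, was at 54.1, 51.4 and 55.7 TPM in Ctrl and 21.97, 22.7 and 15.98 TPM in shARF (log2 fold change −1.42, adjusted p = 2.26e-05). CDKN2B, the gene of the CDK inhibitor p15INK4b next to CDKN2A, fell by much less (−0.28 on the log2 scale, adjusted p = 0.00225), as did the long noncoding RNA CDKN2B-AS1, whose start overlaps the CDKN2A locus (−0.58, adjusted p = 0.0336). The call of CDKN2B-AS1 was lost when any library other than shARF 1 was left out, with adjusted p between 0.0525 and 0.0806. Whether reads were counted by strand is not given in the sources used here, so reads of this antisense RNA and of its neighbours cannot be told apart.

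Over all genes tested, the median of the differences was 0.03 on the log2 scale, and the median standard deviation between libraries of a group was 0.10. At an adjusted p below 0.05 (limma, Benjamini-Hochberg over 14316 genes), 4281 genes (29.9%) were higher and 3837 (26.8%) were lower in shARF. With a log2 fold change beyond 1, these were 528 (3.69%) and 901 (6.29%). Beyond 2 they were 130 (0.908%) and 284 (1.98%). These shares over all genes are the background for the counts of the gene lists below. The larger changes thus lay more on the lower side, while the calls without a cutoff of size were split almost evenly. That even split depends on the scale. When the libraries were scaled to the mean of 14 reference genes, the median of all genes moved to −0.19 and the split became 2215 higher and 6443 lower, or 25.6% higher among those called in place of 52.7%. These counts out of 14316 genes are the background for list counts given on this reference scale. Reference genes had a median of 0.23 (range −0.06 to 0.74), with 8 of 14 called higher, among them HPRT1 and IPO8. Among the 1795 genes with a mean of 100 TPM or more, 25 were lower and 4 higher beyond 2.

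**Figure D1:**
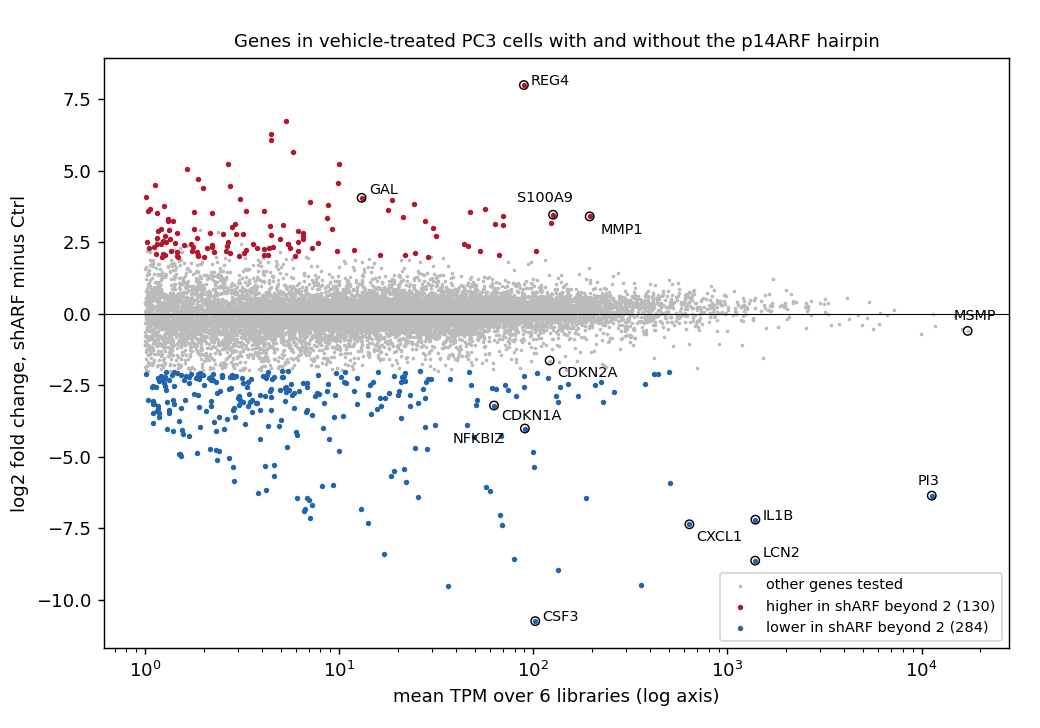
Log2 fold change of each of the 14316 genes (shARF minus Ctrl, vertical axis) against its mean TPM over the 6 libraries (log axis). Red points are the 130 genes higher and blue points the 284 genes lower beyond 2 at an adjusted p below 0.05, and circles mark named genes. The blue points reach further from 0 and to higher levels than the red ones, PI3 being the most abundant of them.

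Of the 15 largest falls, several were in genes of inflammation and epithelial defence. NF-kB is a family of transcription factors held in the cytoplasm by inhibitors of the IkB class and released by signals such as IL-1 and TNF. Its dimers bind short kB sites in the promoters of cytokines, chemokines and acute-phase genes, and also in those of its own inhibitors, which makes the response self-limiting. For the genes below, the 250 bases before the RefSeq start (GRCh38.p14) are shown, since they let the letters of the promoters be set beside the values. Capitals mark matches to GGANNNTCC, a kB-like motif that reads the same on both strands. The stretches are chr4:73869143-73869392 and chr4:73740319-73740568 (plus strand), chr9:128149203-128149452 (plus), chr14:35404750-35404999 (minus) and chr6:137867009-137867258 (plus).
CXCL1: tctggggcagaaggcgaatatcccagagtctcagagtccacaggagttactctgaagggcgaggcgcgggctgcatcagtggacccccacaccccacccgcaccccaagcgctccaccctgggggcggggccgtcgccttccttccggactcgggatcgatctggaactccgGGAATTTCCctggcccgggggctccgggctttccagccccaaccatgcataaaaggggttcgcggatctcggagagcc
CXCL8: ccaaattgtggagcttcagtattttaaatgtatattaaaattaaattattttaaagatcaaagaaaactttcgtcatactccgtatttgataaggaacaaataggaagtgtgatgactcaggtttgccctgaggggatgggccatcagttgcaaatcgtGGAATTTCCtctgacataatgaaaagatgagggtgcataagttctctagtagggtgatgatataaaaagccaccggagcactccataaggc
LCN2: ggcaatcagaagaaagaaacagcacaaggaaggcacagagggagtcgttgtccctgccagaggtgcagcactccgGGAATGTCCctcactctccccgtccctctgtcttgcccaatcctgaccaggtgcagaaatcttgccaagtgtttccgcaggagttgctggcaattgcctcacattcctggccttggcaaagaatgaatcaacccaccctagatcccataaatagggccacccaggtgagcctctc
NFKBIA: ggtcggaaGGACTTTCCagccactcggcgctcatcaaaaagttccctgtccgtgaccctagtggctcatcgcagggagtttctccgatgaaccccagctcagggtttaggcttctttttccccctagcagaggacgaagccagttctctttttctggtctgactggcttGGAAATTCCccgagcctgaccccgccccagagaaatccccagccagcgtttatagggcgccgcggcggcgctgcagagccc
TNFAIP3: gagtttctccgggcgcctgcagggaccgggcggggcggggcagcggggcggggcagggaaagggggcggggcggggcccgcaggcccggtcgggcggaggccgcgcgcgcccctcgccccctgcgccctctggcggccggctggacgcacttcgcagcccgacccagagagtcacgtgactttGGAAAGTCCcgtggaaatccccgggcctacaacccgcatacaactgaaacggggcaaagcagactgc

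Windows of 250 bases before to 50 bases after the start were searched for every gene that matched the RefSeq table, which gave 15270 windows of 10567 genes, and 9.82% of them held GGANNNTCC. In the cytokine and chemokine list 11 of 22 windows held it, and in the list of NF-kB subunits, inhibitors and regulators 11 of 38 (28.9%). Among the genes lower beyond 2, 33 of 235 windows did (14.04%), and among those higher beyond 2, 8 of 89 (8.99%). Beyond 1 the shares were alike, with 11.1% of windows of lower genes and 11.2% of windows of higher genes. In the DNA replication list, whose genes mostly rose, 7 of 49 windows held it (14.3%). The AP-1 motif TGANTCA was in 5.44% of all windows, in 11.5% of those of genes lower beyond 2 and in 10.1% of those of genes higher beyond 2. The IL1B window held no GGANNNTCC. A match is a description of letters and was not tested as a site.

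Of the 33 cytokines and chemokines listed, 26 were tested, 22 were lower (17 of them beyond 2) and 3 were higher, where over all genes 26.8% were lower, 1.98% lower beyond 2 and 29.9% higher, with a median of −3.64 beside 0.03 over all genes. IL1B, the gene of the cytokine interleukin-1 beta, was at 2878, 2603 and 2822 TPM in Ctrl and at 17.5, 21.3 and 17.8 TPM in shARF, so that Ctrl exceeded shARF by 147-fold (log2 fold change −7.19 with an SE of 0.080, adjusted p = 2.29e-10). CXCL1, a chemokine that draws neutrophils, was at 1323, 1208 and 1266 TPM in Ctrl and 8.62, 7.67 and 6.74 TPM in shARF (log2 fold change −7.35, adjusted p = 2.70e-10). The groups were far apart for both genes, and no Ctrl library came near a shARF library. CXCL8 (interleukin-8) was at 998 ± 80.3 TPM (SD, n = 3) in Ctrl and 16.6 ± 1.44 in shARF. CXCL2, CXCL3 and CXCL6, chemokines of the same receptor, had log2 fold changes of −6.19, −7.03 and −4.84. The close sequences of CXCL1, CXCL2 and CXCL3 make the division of reads among them uncertain. CSF3, the gene of G-CSF, was at 214, 207 and 192 TPM in Ctrl and was listed at 0, 0 and 0.0715 TPM in shARF, so that the size of its change depends on the pseudocount. CSF2, the gene of GM-CSF, was at 20.8, 26.99 and 35.9 TPM in Ctrl and listed at 0.400, 0 and 0 TPM in shARF.

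Lower-expressed cytokines moved with them. CCL20, a chemokine for CCR6-bearing lymphocytes, fell from 50.6 ± 1.92 to 0.506 ± 0.132 TPM, IL1A from 11.3 ± 0.488 to 0.567 ± 0.154, IL6 from 4.44 ± 0.284 to 0.177 ± 0.0867 and TNF from 2.12 ± 0.389 to 0.0629 ± 0.0544. LIF, a cytokine of the IL-6 family, fell by less, from 353 ± 31.6 to 62.8 ± 2.49 TPM (log2 fold change −2.48). The 3 genes that rose were CCL5 (log2 fold change 1.10, adjusted p = 0.00333), IL18 (0.44, adjusted p = 4.12e-04) and CCL2 (0.17, adjusted p = 0.0415). CXCL5, a further neutrophil chemokine, missed the 1 TPM limit through its low shARF values (1.48, 1.77 and 1.68 TPM in Ctrl and 0.062, 0 and 0 in shARF). CXCL16 alone was tested and not called in this list (20.1 TPM in Ctrl and 17.8 in shARF, adjusted p = 0.174).

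The largest loss of transcript was in a gene of epithelial defence. PI3 encodes elafin, an inhibitor of neutrophil elastase, and was the most abundant of these genes. It was at 22857, 20330.2 and 23717 TPM in Ctrl and at 249, 297 and 273 TPM in shARF (log2 fold change −6.35 with an SE of 0.082, adjusted p = 4.07e-10), the largest loss in TPM of any gene tested. LCN2, the gene of the siderophore-binding lipocalin 2, was at 2879, 2678 and 2758 TPM in Ctrl and 6.21, 6.71 and 7.95 TPM in shARF (log2 fold change −8.63, adjusted p = 1.29e-10). The complement component C3 was at 281, 257 and 265 TPM in Ctrl and 0.662, 0.299 and 0.438 TPM in shARF. The acute-phase genes SAA1 and SAA2, which resemble each other closely, were at 72.6 ± 6.53 and 14.1 ± 2.18 TPM in Ctrl and were listed at 0 in all shARF libraries. PTX3, SLPI and CFB had log2 fold changes of −3.18, −2.03 and −1.55. In all, 8 of 14 tested defence genes (of 22 listed) were lower and 3 higher, with a median of −1.79. The summed TPM of the list ranged from 24321 to 27899 in Ctrl, most of it PI3, and from 773 to 855 in shARF. Against these stood S100A9, a calcium-binding protein of the calprotectin pair, which rose from 21.01 ± 3.62 to 232 ± 9.10 TPM (log2 fold change 3.47, adjusted p = 5.33e-08), while its partner S100A8 was below the 1 TPM limit. C1R and C1S, proteases of the complement C1 complex, also rose, by 1.38 and 0.65 on the log2 scale.

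**Figure D2:**
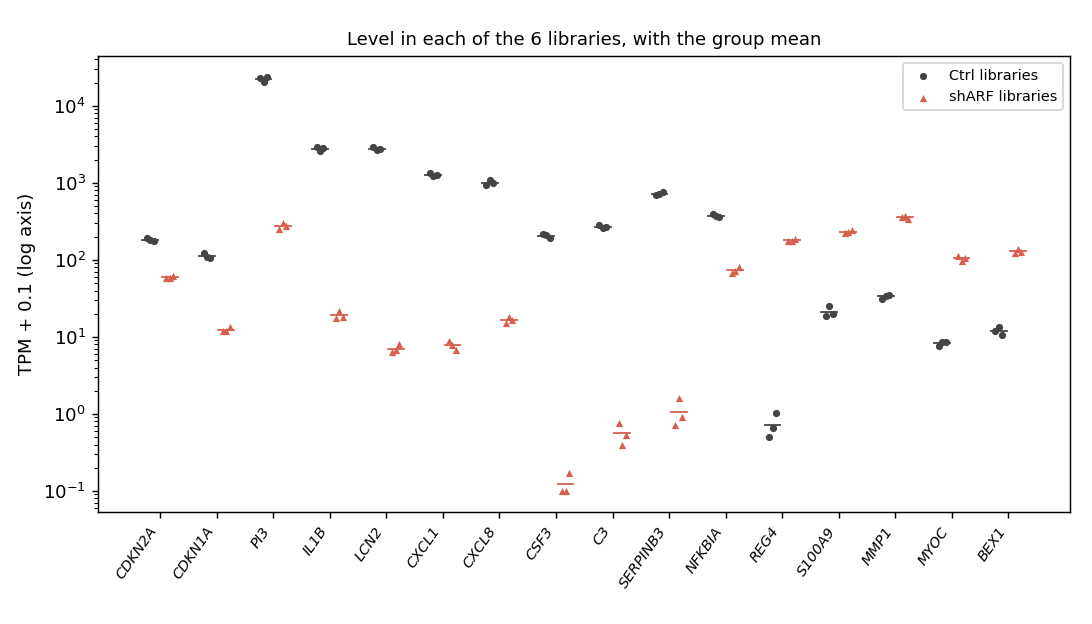
TPM + 0.1 (log axis) in each Ctrl (dots) and shARF (triangles) library for 16 genes, with a bar at the group mean. The 3 libraries of a group lie close together, and in all 16 genes the groups are apart, the first 11 lower and the last 5 higher in shARF.

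Genes that control NF-kB signalling were lower as well. Of 26 tested, 16 were lower and 6 higher (median −0.44), and on the reference scale 19 and 3. NFKBIZ, the gene of the nuclear NF-kB partner IkB-zeta, was at 187, 173 and 151 TPM in Ctrl and 11.2, 9.43 and 10.9 TPM in shARF (log2 fold change −4.004, adjusted p = 1.23e-08). TNFAIP3, the gene of the ubiquitin-editing inhibitor A20, was at 13.9, 11.8 and 11.5 TPM in Ctrl and 1.22, 1.08 and 0.943 in shARF. The log2 fold changes were −2.45 for the A20 partner TNIP1, −2.75 for the kinase IKBKE, −2.37 for the inhibitor IkB-alpha (NFKBIA, 375 ± 18.8 TPM in Ctrl and 72.9 ± 6.79 in shARF) and −2.16 for the ubiquitin ligase cIAP2 (BIRC3). Subunits moved less, with −1.14 for REL, −0.92 for RELB, −0.71 for NFKB2 and −0.59 for NFKB1. The main activating subunit RELA was at 68.6, 56.9 and 60.9 TPM in Ctrl and 59.1, 58.2 and 62.8 in shARF, where the groups overlapped (adjusted p = 0.619). Those that rose were IKBKG (0.73), the scaffold NEMO of the IkB kinase, and MAP3K14 (0.73), TNIP2, TRAF2, NFKBIE and NFKBIB, each by less than 1.

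Genes of squamous epithelium were also among the 15 largest falls. SERPINB3 and SERPINB4, neighbouring protease inhibitors known as squamous cell carcinoma antigens, were at 718 ± 27.8 and 159 ± 5.53 TPM in Ctrl and at 0.970 ± 0.457 and 0.338 ± 0.181 in shARF. Their sequences are nearly identical, so how reads were split between them is uncertain. KRT6B, a keratin of activated keratinocytes, went from 138 ± 10.96 to 0.759 ± 0.253 TPM. Of the remaining ones, CACNA1S, a subunit of a voltage-gated calcium channel, was at 35.7, 30.7 and 35.3 TPM in Ctrl and listed at 0 in every shARF library. CYB5R2, a cytochrome b5 reductase, was at 13.1 ± 1.41 TPM in Ctrl and 0.0122 ± 0.0106 in shARF, and the unnamed locus AL844908.1 at 25.7 ± 1.97 and 0.160 ± 0.139. MSMP, a secreted microseminoprotein-like factor of PC3 cells, was the second most reduced gene in TPM though its fold was modest (21498, 21077 and 19763 TPM in Ctrl and 13276, 13670.0 and 14409 in shARF, log2 fold change −0.59).

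The rises were led by a secreted lectin. REG4, a gene of the regenerating family known from intestinal epithelium, was at 0.403, 0.557 and 0.913 TPM in Ctrl and 174, 176 and 184 TPM in shARF (log2 fold change 8.004 with an SE of 0.21, adjusted p = 2.42e-08). Other genes of mucosal surfaces were MUC13, a transmembrane mucin (1.74, 2.65 and 2.04 TPM in Ctrl and 33.6, 36.5 and 35.97 in shARF), and CEACAM6, a cell adhesion protein (0.821 ± 0.354 and 13.3 ± 0.965). The collagenases MMP13 and MMP1 rose, MMP13 being at 7.11, 7.60 and 7.18 TPM in Ctrl and 86.3, 88.8 and 85.6 in shARF and MMP1 at 31.01, 34.2 and 35.2 and 358, 370.3 and 342. In each of these genes the lowest shARF library was more than the highest Ctrl library.

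Neuropeptide and receptor genes also stood among the 15 largest rises. GAL, the gene of galanin, went from 1.40 ± 0.393 to 24.7 ± 4.43 TPM, and HTR2B, a serotonin receptor, from 2.55 ± 0.463 to 32.96 ± 3.09. BEX1 and NAP1L3, a pair of X-linked genes best known from neurons, went from 11.8 ± 1.31 to 128 ± 8.54 and from 3.10 ± 0.191 to 45.5 ± 3.27. MYOC, the gene of the secreted protein myocilin, was at 8.13 ± 0.532 and 105 ± 6.73 TPM. Genes of lipid droplets were HSD17B13 (0.167 ± 0.157 and 11.4 ± 0.364) and CIDEC (1.11 ± 0.306 and 16.5 ± 2.06). AP003774.4, without a gene name, went from 0.910 ± 0.814 to 18.8 ± 1.95, and AC073486.1 was listed at 0 in all Ctrl libraries and was at 11.7, 10.1 and 9.97 TPM in shARF.

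The CDK inhibitors did not move as a group. CDKN1A, the gene of p21 and a classic p53 target that other factors also control, was at 124, 109.7 and 106 TPM in Ctrl and 11.8, 11.7 and 13.2 TPM in shARF (log2 fold change −3.20 with an SE of 0.077, adjusted p = 1.45e-08). CDKN2D (p19INK4d) and CDKN2B were lower by less than 1, the former with an adjusted p of 0.0206 that rose above 0.05 without Ctrl 1, Ctrl 3 or shARF 1 (between 0.0559 and 0.0817). CDKN2C (p18INK4c) and CDKN1B (p27) were higher, by 0.67 and 0.47 on the log2 scale. Of 20 p53 target genes tested, 9 were lower and 7 higher, with a median of −0.04, beside 26.8% lower and 29.9% higher over all genes. On the reference scale 11 were lower and 2 higher (median −0.26), beside 6443 lower and 2215 higher of all 14316 genes (median −0.19). TNFRSF10B, a TRAIL receptor, fell from 149 ± 4.25 to 68.97 ± 2.61 TPM and TP53INP1 had −0.47, while BBC3, the gene of the BH3-only protein PUMA, rose by 0.82. Beside them, MDM2 was at 14.3, 14.4 and 14.3 TPM in Ctrl and 14.8, 14.1 and 13.4 in shARF (log2 fold change −0.02, adjusted p = 0.819), its sign changed under 3 of the alternatives, and on the reference scale it was lower (−0.23, adjusted p = 0.0108).

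DNA replication genes rose almost without exception. This list holds the origin recognition and MCM helicase genes, the GINS complex, polymerases, clamp loaders and nucleotide synthesis enzymes, many of them known E2F targets. Of 45 tested, 44 were higher and 0 lower (background 29.9% and 26.8%), with a median of 1.06 on the log2 scale and 24 beyond 1. GINS2, a subunit of the replicative helicase, was at 16.3, 18.7 and 16.3 TPM in Ctrl and 55.1, 53.5 and 57.3 TPM in shARF (log2 fold change 1.69 with an SE of 0.070, adjusted p = 3.14e-07). ORC1, the largest subunit of the origin recognition complex, was at 16.9 ± 0.829 and 44.99 ± 1.03 TPM, and the helicase loader CDC6 at 14.9 ± 1.001 and 38.8 ± 1.31. MCM5, a subunit of the MCM helicase, went from 15.1 ± 1.37 to 39.4 ± 2.43 TPM, and the sliding clamp PCNA from 212 ± 19.3 to 449 ± 15.6. TYMS, thymidylate synthase, and RRM2, the regulated subunit of ribonucleotide reductase, rose by 1.35 and 1.20. The gene not called was ORC2, at 79.1 TPM in Ctrl and 77.3 in shARF. With the libraries scaled to reference genes, 41 of 45 stayed higher and 1 was lower, with a median of 0.84.

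For 2 of these genes the 250 bases before the start are shown, with the E2F-like motif in capitals. The motif was searched as TTTGGCGC, TTTCCCGC, TTTGCCGC or TTTCGCGC on both strands, and both matches read on the opposite strand of the gene. GINS2 is at chr16:85688955-85689204 (minus strand) and CDT1, the partner of CDC6 in helicase loading (log2 fold change 1.34), at chr16:88803539-88803788 (plus strand).
GINS2: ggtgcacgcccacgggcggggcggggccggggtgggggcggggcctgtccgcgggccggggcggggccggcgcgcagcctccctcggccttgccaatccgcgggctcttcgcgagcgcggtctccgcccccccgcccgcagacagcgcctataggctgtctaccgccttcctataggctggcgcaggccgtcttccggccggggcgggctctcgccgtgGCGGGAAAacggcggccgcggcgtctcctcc
CDT1: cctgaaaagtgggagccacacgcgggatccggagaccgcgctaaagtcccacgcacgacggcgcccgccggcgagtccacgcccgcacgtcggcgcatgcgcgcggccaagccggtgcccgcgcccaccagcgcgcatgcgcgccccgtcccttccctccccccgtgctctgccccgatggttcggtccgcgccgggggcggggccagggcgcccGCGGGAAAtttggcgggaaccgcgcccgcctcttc
Of the 49 windows of replication genes 19 held the motif (38.8%), and of all 15270 windows 4.90% did. Among mitotic genes it was in 3 of 37 windows (8.11%), and among genes lower beyond 2 in 6 of 235 (2.55%).

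**Figure D3:**
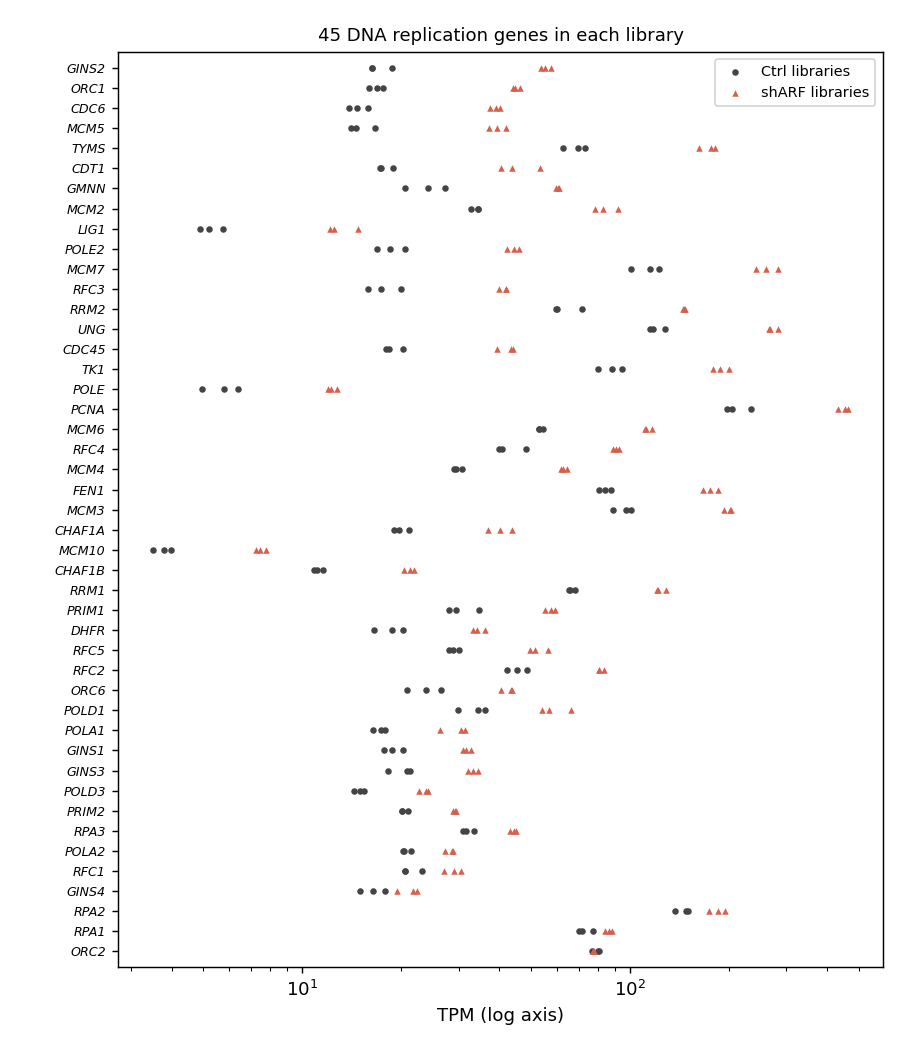
TPM (log axis) of the 45 DNA replication genes in each Ctrl (dots) and shARF (triangles) library, ordered by log2 fold change with the largest at the top. Apart from ORC2 at the bottom, the triangles lie to the right of the dots.

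Genes of G1, E2F and mitosis shifted less. Of 23 G1 cyclins, CDKs and E2F or RB family genes tested, 13 were higher and 2 lower (median 0.27), and on the reference scale 9 and 5 (median 0.05). E2F1 and E2F2, the activating E2F factors, rose from 31.2 ± 3.93 to 72.4 ± 7.02 and from 1.59 ± 0.344 to 6.03 ± 0.670 TPM. CDK2, the kinase of S-phase entry, was at 65.6, 61.8 and 65.1 TPM in Ctrl and 129.7, 136 and 132 in shARF, and WEE1, which restrains CDK1, rose by 1.03. Against these, CDK6 and E2F3 were lower (−0.65 and −0.45), and RB1 was not called (21.4 and 23.3 TPM). Of 37 mitotic genes, 29 were higher and 0 lower, with a median of 0.40 and 0 beyond 1. The checkpoint gene MAD2L1 (1.00), the cyclin CCNA2 (0.82), survivin BIRC5 (0.78) and CDK1 (0.77) led them. Relative to reference genes, 20 mitotic genes were higher and 0 lower, with a median of 0.18.

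Genes of the ribosome and nucleolus, where p14ARF resides, were higher by small amounts that the choice of scale reduces. Among 79 cytosolic ribosomal protein genes, 64 were higher and 0 lower, with a median of 0.32. Scaled to reference genes, 24 were higher, 2 lower and the median was 0.10, beside −0.19 over all genes. RPS2 had the largest gain in TPM of any gene (3415, 3326 and 3329.5 TPM in Ctrl and 4847, 4922 and 4889 in shARF), followed by RPL41 (4043, 5473 and 4291 and 6229.6, 5753 and 6355). The largest folds of the family were those of RPL27 (0.76), RPS26 (0.75), RPL35A (0.70) and RPS15A (0.63). Ribosomal protein genes have many processed pseudogenes, so their reads may be split. Of 44 nucleolar ribosome biogenesis genes, 38 were higher and 0 lower (median 0.33), and on the reference scale 17 and 2 (median 0.12). The methyltransferase fibrillarin (FBL) went from 170.1 ± 4.91 to 283 ± 15.1 TPM, LYAR from 39.3 ± 3.09 to 72.7 ± 5.22 and the processome component NOP14 from 67.7 ± 5.64 to 111 ± 11.7. Also among the largest gains in TPM were the tubulins TUBA1B (1.21) and TUBB (0.70), the actin ACTG1 (0.52) and the mitochondrial chaperonin HSPD1 (0.85).

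Among 22 genes of ARF partners and its ubiquitin ligases, 13 were higher and 3 lower (median 0.25), against 5 and 8 on the reference scale. Without that scaling, 29.9% of all genes were higher and 26.8% lower, and with it 2215 and 6443 of 14316 genes. MYC, bound by ARF and itself a driver of ribosome biogenesis, was at 803, 713 and 703 TPM in Ctrl and 1171, 1158 and 1219.8 in shARF (log2 fold change 0.68, adjusted p = 3.07e-05). SIVA1, an ARF ligase, rose by 0.61 and the corepressor CTBP1 by 0.49. NPM1 was at 1501 ± 73.99 and 1800.4 ± 95.4 TPM (log2 fold change 0.26, adjusted p = 0.00607), a call that was lost on the reference scale (log2 fold change 0.045, adjusted p = 0.567).

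p14ARF promotes the attachment of the small protein SUMO to its partners, a reaction that needs the activating pair SAE1 and UBA2. Of 21 SUMO machinery genes, 10 were higher and 1 lower, with a median of 0.005 on the log2 scale. Over all genes 29.9% were higher and 26.8% lower. On the reference scale 5 SUMO machinery genes were higher and 10 lower, beside 2215 higher and 6443 lower of all 14316 genes. SAE1 was at 154, 136 and 140.4 TPM in Ctrl and 223, 212 and 242 in shARF (log2 fold change 0.65, adjusted p = 6.40e-05). UBA2 rose by 0.47, the ligase NSMCE2 by 0.41 and SUMO2 by 0.37 (adjusted p = 2.25e-04). The call of NSMCE2 was lost on the reference scale (0.20, adjusted p = 0.110). SUMO3 was at 189 ± 7.14 and 182 ± 5.89 TPM (adjusted p = 0.457), and on the reference scale it was lower (−0.26, adjusted p = 0.00123). All of these changes were smaller than 1. Of 38 NEDD8 pathway and cullin genes, 16 were higher and 6 lower (median 0.15). On the reference scale these were 3 and 14 (median −0.07, beside −0.19 over all genes). DCUN1D3, a co-factor of cullin neddylation, fell from 15.4 ± 0.735 to 7.14 ± 0.290 TPM, CUL7 had −0.58, ELOB 0.63 and CAND2 0.95.

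Interferon-stimulated and antigen presentation genes went the other way from the cytokines. Of 42 interferon-stimulated genes tested, 28 were higher and 4 lower (median 0.38), and on the reference scale 17 and 8 (median 0.16). GBP1, a guanylate-binding protein induced by interferon-gamma, was at 14.1, 13.8 and 13.999 TPM in Ctrl and 49.001, 56.7 and 57.2 in shARF (log2 fold change 1.95, adjusted p = 1.38e-07). The transcription factor IRF1 went from 8.74 ± 0.938 to 20.8 ± 2.01 TPM, the antiviral genes IFITM1 from 258 ± 14.6 to 539.8 ± 110.3 and OAS1 from 52.9 ± 3.70 to 109 ± 12.3. The RNA sensor DDX58 (RIG-I) fell by 0.87. Of 15 MHC class I and peptide loading genes, 9 were higher and 4 lower (median 0.55). The class I transactivator NLRC5 was at 2.41, 2.11 and 2.06 TPM in Ctrl and 6.61, 6.81 and 8.48 in shARF, and the immunoproteasome subunit PSMB9 at 6.83 ± 0.307 and 21.3 ± 1.86. TAP1, a peptide transporter, rose by 1.01, and the aminopeptidase ERAP2 fell from 11.1 ± 0.865 to 4.62 ± 0.0574 TPM.

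Genes of the cell surface and matrix were mostly lower. Of 44 matrix, integrin and protease genes tested, 30 were lower and 6 higher, with a median of −0.72. SERPINB2, the plasminogen activator inhibitor type 2, was at 82.4, 84.8 and 89.6 TPM in Ctrl and 6.07, 5.37 and 5.602 in shARF (log2 fold change −3.89, adjusted p = 2.82e-09). Of the laminin chains of the basement membrane, LAMB3 fell from 143 ± 14.7 to 19.4 ± 1.81 TPM and LAMA3 by 1.79 on the log2 scale. The urokinase PLAU and its receptor PLAUR had −1.04 and −1.40, the membrane protease MMP14 −2.44, and the integrins ITGA5 and ITGA2 −1.38 and −1.08. The secreted proteases MMP1, MMP13 and MMP10 (1.89) moved the other way.

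Mesenchymal genes were divided, 7 higher and 10 lower of 20 tested, beside 29.9% higher and 26.8% lower over all genes. Fibronectin (FN1) was at 26.8, 22.04 and 25.005 TPM in Ctrl and 3.54, 3.46 and 3.35 in shARF (log2 fold change −2.80), N-cadherin (CDH2) fell by 1.23 and cadherin-11 (CDH11) by 1.58. The collagen chain COL1A2 rose from 6.73 ± 0.441 to 54.5 ± 4.91 TPM, COL3A1 from 0.525 ± 0.164 to 5.28 ± 0.664, the small proteoglycan LUM from 0.152 ± 0.0884 to 5.31 ± 0.781 and SPARC from 13.6 ± 0.942 to 74.05 ± 2.17, while COL1A1, the partner chain of COL1A2 in type I collagen, was lower (7.27 ± 0.856 and 4.04 ± 0.528). Of 27 epithelial junction and keratin genes, 12 were higher and 10 lower (median 0.04), and on the reference scale 6 and 12. EHF, an epithelial ETS factor, fell from 20.4 ± 1.59 to 5.89 ± 0.208 TPM and the splicing regulator ESRP1 from 5.07 ± 0.381 to 1.89 ± 0.324, whereas P-cadherin (CDH3) and keratin 18 (KRT18) rose by 1.08 and 0.89.

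Markers of 7 cell types were read beside these results. All 5 general epithelial markers were above 1 TPM, with summed levels from 907 to 1004 TPM in Ctrl and from 1138 to 1280 in shARF. Of 6 prostate luminal markers none reached 1 TPM, and KLK2, KLK3 and FOLH1 were below 0.1 TPM in every library. Of 4 basal markers 1 reached 1 TPM, and KRT5 was below 0.1 TPM in every library. The basal sum ranged from 7.74 to 8.41 TPM in Ctrl and from 9.95 to 10.8 in shARF. Of 6 fibroblast markers 4 were tested, and the summed level of the 6 ranged from 14.01 to 16.6 TPM in Ctrl and from 64.8 to 74.5 in shARF. The rise of the sum was carried by COL1A2, COL3A1 and LUM, while COL1A1 was lower, as given above. PDGFRB was at 0.263, 0.524 and 0.341 TPM in Ctrl and 0.154, 0.174 and 0.200 in shARF, and DCN was below 0.1 TPM in all 6 libraries. The sum of 6 blood cell markers was from 163 to 230.4 TPM in Ctrl and from 74.7 to 96.6 in shARF, nearly all of it CD68, and PTPRC and CD3E were below 0.1 TPM. The endothelial sum of 4 markers was from 113 to 123 TPM in Ctrl and from 193 to 194 in shARF. KDR, a VEGF receptor, rose (0.86), PECAM1 fell (−2.55) and VWF was below 0.1 TPM. Of 6 neuroendocrine markers the synaptic vesicle gene SYP was tested, and went from 1.15 ± 0.0670 to 3.72 ± 0.138 TPM. The part of other cells in the results was not tested, and in bulk RNA fewer cells of a type and less RNA per cell cannot be told apart.

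Signalling feedback genes were mostly lower. Of 26 AP-1, MAPK feedback and EGF ligand genes, 14 were lower and 5 higher (median −0.26), and on the reference scale 16 and 2. IER3, an immediate early gene, was at 722, 691 and 719.9 TPM in Ctrl and 161, 165 and 169.6 in shARF, and the ERK phosphatases DUSP4, DUSP5 and DUSP6 had log2 fold changes of −1.37, −0.91 and −1.30. Stress response genes of the ATF4 and unfolded protein pathways included 14 lower and 0 higher among 23 (median −0.30), and on the reference scale 23 lower and 0 higher (median −0.51). The chaperone partner DNAJB9 fell from 54.5 ± 4.09 to 18.6 ± 0.824 TPM, the pseudokinase TRIB3 by 0.99, asparagine synthetase (ASNS) by 0.81 and the disulfide isomerase PDIA4 by 0.64 on the log2 scale.

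Cholesterol and fatty acid synthesis genes were higher in 23 of 30 cases and lower in 2, with a median of 0.53 (21 and 4 with a median of 0.31 on the reference scale). SQLE, squalene epoxidase, was at 63.3, 58.4 and 58.7 TPM in Ctrl and 135, 138 and 147 in shARF, HMGCS1 went from 46.6 ± 1.10 to 102 ± 2.51 and ACLY from 118 ± 10.1 to 214 ± 13.4. STARD4, a carrier of cholesterol between membranes, was lower (−0.56).

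Glycolysis and HIF target genes were higher or lower about as often as all genes (29.9% and 26.8%), with 10 higher and 8 lower of 32. On the reference scale these were 6 and 14, beside 2215 and 6443 of all 14316 genes. VEGFA fell from 41.7 ± 2.40 to 16.6 ± 0.356 TPM and adrenomedullin (ADM) by 0.61, while ALDOC and CA9 rose by 0.97 and 0.97. Of 23 NRF2 targets, 7 were higher (30.4%, near the 29.9% of all genes) and 2 lower (8.70%), with a median near 0. On the reference scale 2 NRF2 targets were higher and 12 lower, beside the same 2215 and 6443 of all genes. The lower ones were TXNRD1 (−0.56) and HMOX1 (−0.56), and the largest rises were those of AKR1B10 (1.17, adjusted p = 0.0138, and 0.0524 without shARF 1) and TKT (0.86). Small RNA processing genes, on which hairpins depend, had 3 higher and 1 lower of 10, beside 29.9% higher over all genes, and 0 and 3 on the reference scale. AGO2, XPO5 and PRKRA were higher by 0.38, 0.37 and 0.37, calls lost on the reference scale, and DICER1 was lower (−0.27).

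Of the 13 mRNAs of the mitochondrial genome, 4 were lower (30.8%) and 0 higher (median −0.36). Over all genes 26.8% were lower and 29.9% higher. On the reference scale 7 were lower, beside 6443 of all 14316 genes. With a library left out the number lower was from 2 (without Ctrl 2, Ctrl 3 or shARF 5) to 7 (without Ctrl 1), with medians from −0.52 to −0.21, and with the replicate block 3 were lower and 1 higher, with a median of 0.017. MT-ND4 was at 9454, 14818 and 12702 TPM in Ctrl and 8482, 8053 and 6235 in shARF, and MT-CO1 at 15938, 20057 and 20959 and 13977, 14303 and 11245. MT-ND4L (−0.54) and MT-CO2 (−0.41, with overlapping groups) lost their calls when Ctrl 2, Ctrl 3 or shARF 5 was left out, and MT-CO2 also without shARF 1 (adjusted p from 0.0532 to 0.0641 and from 0.0576 to 0.134). The share of all TPM from the mitochondrial genome was between 7.85% and 10.9% in Ctrl and between 6.04% and 8.03% in shARF.

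Log2 fold changes were also read by chromosome for the 12885 genes with a RefSeq position. Medians lay between −0.12 and 0.13 on all chromosomes but 7 and 16. On chromosome 7, 285 of 606 genes (47.0%) were lower and 81 higher, with a median of −0.19. On chromosome 16, 281 of 585 genes (48.0%) were higher and 91 lower, with a median of 0.23. In runs of 31 neighbouring genes averaging 5 TPM or more, the highest median was 0.66, on chromosome 17 from 34961540 to 38764225, where 29 of 31 genes were above 0 and 26 were called higher. This run holds AATF (0.67), a partner of RB, and ACACA (0.76), acetyl-CoA carboxylase, and its largest rise was that of EPOP (1.19), while ARHGAP23 was lower (−1.60). The lowest median, −0.47, was on chromosome 7 from 103471789 to 116561185, with 24 of 31 genes lower, among them DNAJB9, NAMPT (−1.01) and the caveolins CAV1 (−0.55) and CAV2 (−0.83). Of the 9864 runs, the middle 95% had medians between −0.27 and 0.38. In Both against MLN these same runs had medians of 0.45 and −0.16, beside −0.06 over all genes. There the median was −0.23 on chromosome 7 and −0.03 on chromosome 16. A difference in copy number between the lines was not tested.

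The same hairpin line was set against PC3 cells in the presence of MLN4924, in libraries that the comparison above did not use. Of the 14316 genes, 2346 (16.4%) were higher and 3759 (26.3%) lower in Both than in MLN. CDKN2A was again lower, with 47.5 TPM in Both beside 118 in MLN. Of the 284 genes lower beyond 2 without drug, 268 had the same sign with drug, 235 (82.7%) were called lower and 3 higher, with medians of −2.89 without and −1.58 with drug. Of the 130 genes higher beyond 2, 96 had the same sign, 70 (53.8%) were called higher and 7 lower, with medians of 2.66 and 0.85. Across the 14316 genes, Pearson's r between the log2 fold changes was 0.54 and Spearman's rho 0.43, as a description over genes that share the cell lines. Since the genes were picked for their size in vehicle, smaller medians with drug are no measure of a weaker effect.

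**Figure D4:**
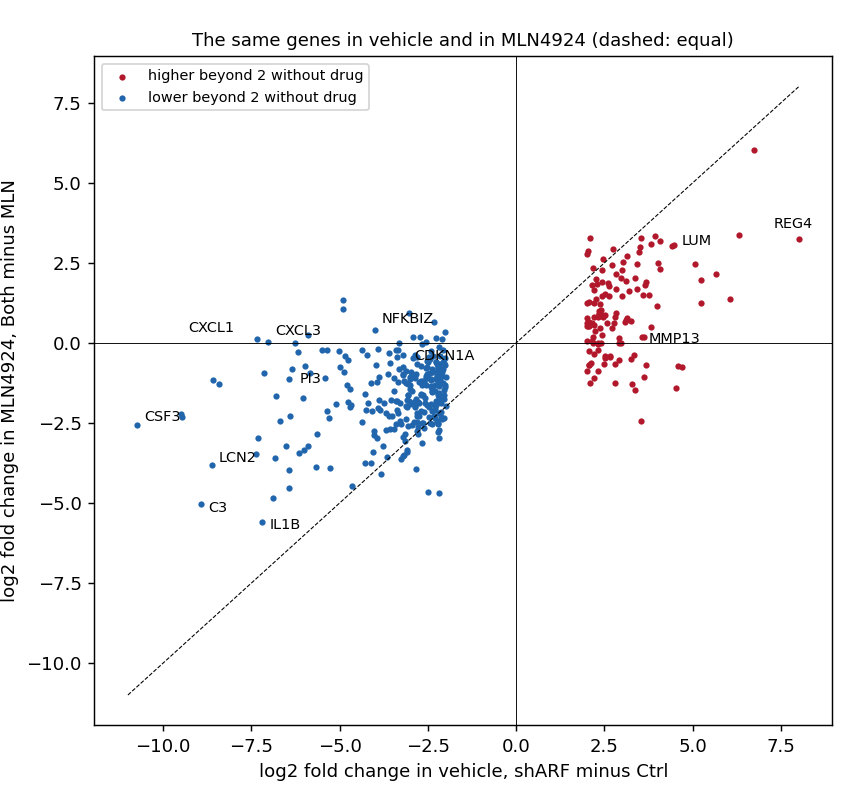
Log2 fold change with MLN4924 (Both minus MLN, vertical axis) against that in vehicle (shARF minus Ctrl, horizontal axis) for the 130 genes higher (red) and 284 genes lower (blue) beyond 2 in vehicle, with a dashed line of equal change. Most blue points lie below 0 on the vertical axis, and CXCL1 and CXCL3 lie near 0 on it.

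Within the inflammatory genes the drug libraries separated some members from others. CXCL1 reached 822 TPM in Both and 758 in MLN (a log2 difference of 0.11, adjusted p = 0.361), and CXCL3 reached 458 and 451 (0.02, adjusted p = 0.849), whereas IL1B and C3 had log2 differences of −5.60 and −5.05. PI3 was at 1930.3 TPM in Both and 3374 in MLN (a log2 difference of −0.80, adjusted p = 7.43e-04). Over all genes, 26.3% were lower and 16.4% higher with drug, with a median of −0.06. Of the 26 cytokine list genes, 19 were lower and 2 higher with drug (median −0.92). The 26 NF-kB regulators had 9 lower and 3 higher (median −0.16). Of 45 DNA replication genes, 17 were higher and 3 lower (median 0.18), against 44 and 0 in vehicle. Of 42 interferon-stimulated genes, 0 were higher and 30 lower (median −0.55), where in vehicle 28 were higher and 4 lower. Differences between vehicle and drug were not tested here.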

How the data were processed

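Human PC3 RNA was sequenced by the authors in 4 groups of 3 libraries, and 6 libraries are compared here. The authors trimmed reads and mapped them to hg38 in CLC Genomics Workbench with an Ensembl annotation, and deposited TPM per gene, with equal sums over all libraries. Depth cannot be read from TPM and is unknown, so its part in the precision is not given, and errors are the spread between libraries. Groups follow the labels, and columns follow their names, "M4" being read as MLN4924.

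From these values log2(TPM + 0.1) was taken for the genes averaging 1 TPM or more across both groups, and the groups were compared two-sided in R 4.3.3 by limma 3.58.1 (lmFit, then eBayes with a trend). Benjamini-Hochberg adjustment covered every gene entered. The pseudocount understates changes of low genes. The same fit was made for Both against MLN. The fit was tested on simulated data. Alternatives were other pseudocounts, filters and scalings, a replicate block, other fits and each library left out; scaling to 14 reference genes and a block with a lower filter were chosen after seeing the data.

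The gene lists and the genes to be compared were chosen with earlier results of these data known. Named genes were CDKN2A, the 15 largest rises and falls (adjusted p below 0.05, no overlap of groups, at least 10 TPM in the higher group), the 6 largest gains and losses in TPM, the 4 largest changes of each of 27 lists, and genes of 9p21, SUMO2, SUMO3, MDM2, NPM1 and the CDK inhibitors. Some genes of this rule are not reported here. Other members of these lists were named after their values were seen. Promoter letters and positions came from RefSeq tables (GRCh38.p14), matched by symbol or by a unique synonym. The labels say shRNA and 1 µM, while the design text of the series says knockout and another dose unit. The labels were followed.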

Additional observations from a re-analysis of the deposited data

Results flagged for a closer look

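For 15 of the named genes reported here every shARF library lay on one side of every Ctrl library while every Both library lay on the opposite side of every MLN library. The difference between vehicle and drug was not tested for any of them. Among genes higher in shARF without drug, the log2 fold change of Both against MLN was −0.50 for IRF1, −1.12 for IFITM1, −0.54 for OAS1, −0.36 for NLRC5, −0.26 for TAP1, −0.39 for CDKN2C, −0.20 for CDKN1B, −1.49 for CDH3, −0.28 for KRT18 and −0.61 for CA9. Among genes lower in shARF without drug, it was 0.39 for NFKBIZ, 0.91 for HMOX1, 0.68 for ASNS, 0.24 for DICER1 and 0.40 for MLLT3. MLLT3 was not called in vehicle (adjusted p = 0.0654). On the reference scale it was called lower (−0.41, adjusted p = 0.00263, limma), as it was under median-of-ratios scaling of the libraries (adjusted p = 0.0434) and without Ctrl 3 (adjusted p = 0.0292).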

How the results depend on the processing

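Counts of genes depended on the filter, the scale, the pseudocount and the replicate block. In the order higher and lower, they were 4281 and 3837 at any size, 528 and 901 beyond 1 and 130 and 284 beyond 2. A filter at a mean of 10 TPM, which tests 9159 genes, gave 3390 and 2375 at any size, 194 and 324 beyond 1, and 28 and 99 beyond 2. A filter at 0.1 TPM, which tests 19172, gave 4412 and 4185 at any size, 809 and 1341 beyond 1, and 238 and 444 beyond 2. A pseudocount of 1 gave 52 and 172 beyond 2, by its construction. Scaling to 14 reference genes gave 2215 and 6443 at any size, 346 and 1311 beyond 1, and 101 and 344 beyond 2. With each library left out in turn, the counts ranged from 3558 to 4468 and 3297 to 3766 at any size, 497 to 578 and 863 to 952 beyond 1, and 120 to 135 and 275 to 291 beyond 2. Column numbers 1 and 3 are shared by both groups, and the deviations of same-numbered libraries had r of 0.031 and 0.040. What the numbers stand for is not given in the sources used here. Whether same-numbered libraries share a culture or a day was not tested. A replicate block, which leaves 1 residual degree of freedom, gave 3593 and 3789 at any size and 134 and 305 beyond 2. Together with the filter at 0.1 TPM it gave 2131 and 2401 at any size and 212 and 422 beyond 2. Signs turned for MTAP (−0.11 on the reference scale), IFNE (0.056 without shARF 1, with leave-out values down to −0.68) and MDM2 (0.020 with the block under either filter, and from −0.054 to 0.017 with a library left out, the highest without shARF 5). None of these turned values passed the test, while MDM2 was called lower on the reference scale (−0.23). Of the 140 named genes, 111 kept their sign and call under every one of the 16 alternatives that tested them, and 22 lost a call under at least 1. Depth is unknown.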
